A study of Mus musculus with 18 samples.

Results

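Described here are 8 genes of the gut epithelium as they were measured in eosinophils sorted from the mouse small intestine: the Reg genes Reg1, Reg3a, Reg3b, Reg3g and Reg4 and the trefoil factor genes Tff1, Tff2 and Tff3. They were taken by their gene symbols from the 22708 genes of the deposited table, and all 8 were found. Earlier results of these data were known when the members were chosen, so counts of members called are not those of genes picked blindly. RNA was sequenced in bulk from 18 samples, 6 from wildtype (WT) mice and 6 each from mice labelled Ahr-/- and Ahrr-/-, with 3 males and 3 females per genotype. Ahr encodes a transcription factor switched on by small-molecule ligands (AHR), and Ahrr encodes a repressor of it. The labels give the strain of every group as C57/BL6 and name no age or treatment. According to the methods, cells were enriched with beads against CD11b and then sorted as live CD11b+, MHC-II-, SiglecF+ cells with high side scatter. Ahr-/- and WT mice were neither littermates nor housed together, so litter and housing cannot be told apart from genotype. The published text does not report on the samples labelled Ahrr-/-. Samples are numbered within each sex. The study describes these data as coming from 6 mice per genotype. Neither it nor the labels say this of the samples labelled Ahrr-/-, for which p values may measure only the spread between samples.

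Reg proteins are small secreted proteins with a C-type lectin fold, made mainly by epithelial cells of the gut and pancreas. REG3B and REG3G bind bacteria and help to keep them away from the surface of the small intestine, and their genes are induced by microbes and by interleukin 22 through STAT3. Trefoil factors are small secreted peptides that accompany mucins and help the mucosa to repair: TFF3 comes mainly from intestinal goblet cells, TFF2 from mucous neck cells of the stomach and Brunner's glands of the duodenum, and TFF1 from surface cells of the stomach.

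Levels were deposited on a log2 scale after variance stabilization, where a gene without reads sits at 5.02, the lowest value. Turning the transformation back gave normalized counts, which are read counts corrected for the size of each library. Total counts were 3842977 to 8149200 in WT samples, 6581818 to 10284124 in the samples labelled Ahr-/- and 8788867 to 12046933 in those labelled Ahrr-/-, so a low count is least precise in most WT samples. Groups were compared with limma on the deposited scale with sex as covariate, over all genes with a mean at least 1 above the lowest value, and p values were adjusted over all genes tested (threshold 0.05). On this scale, differences of weakly expressed genes are shrunk relative to their count ratios.

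The targeted genes were read first. Ahr had 10766 to 21592 normalized counts in WT (median 13774), 18084 to 26050 in the samples labelled Ahr-/- (median 23973) and 8324 to 21894 in those labelled Ahrr-/- (median 11605). Ahrr had 819 to 1281 (median 1047), 0 to 9.43 (median 0.837) and 925 to 1888 normalized counts (median 1281) in the same order. The Ahr transcript was thus not reduced in the samples labelled Ahr-/-, nor Ahrr in those labelled Ahrr-/-, and the groups are called by their labels throughout. Counts over a whole gene do not check a deletion whose extent is unknown. Of 5 AHR target genes, 4 were tested, and all 4 were called higher in WT than in the samples labelled Ahr-/-, with no overlap: Ahrr, Cyp1b1 (log2 difference 4.07, adjusted p = 1.93e-08 from limma), Tiparp and Nqo1 (1.82). The same 4 were called lower in the samples labelled Ahr-/- than in those labelled Ahrr-/-, and 0 of 4 were called between WT and the latter. The list's median difference was 3.34, beside 0.00 over all genes tested, between WT and the samples labelled Ahr-/-.

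Markers of eosinophils were abundant in every group. The 12 of 13 listed eosinophil markers with values summed to 44190 to 64750 normalized counts per sample in WT, 57649 to 74621 in the samples labelled Ahr-/- and 25619 to 67267 in those labelled Ahrr-/-, with Alox15 the most abundant. The granule gene Epx was low in all 3 groups, with means of 10.9, 10.4 and 9.30 normalized counts, and Ear6 had at most 3 counts in any sample. Epithelial markers were counted as well, although the sort selects leukocytes: all 18 enterocyte markers were counted in all 18 samples. Their sum was 6642 to 26707 normalized counts in WT (median 10742), 4936 to 12706 in the samples labelled Ahr-/- (median 9850) and 7939 to 41638 in those labelled Ahrr-/- (median 29005), with Sis the most abundant. Which cells the member transcripts came from was not tested, and in bulk RNA fewer cells of a type and less RNA per cell cannot be told apart.

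Reg3b and Reg3g, which encode the antimicrobial lectins, lie in a cluster on chromosome 6 of GRCm38 with Reg3a, Reg1 and the other Reg genes Reg2 and Reg3d. Reg3b spans 78370885 to 78373466 and Reg3g spans 78466269 to 78468874, each with 6 exons. Reference transcripts of the pair share 74.7% of their aligned bases and no stretch of 75 bases, the shortest read length stated. That also holds for every other pair among the 7 Reg genes compared, in which 0 such stretches were shared, so an exact read of this length belongs to 1 of them. Because both genes differed between the groups in the same direction, their promoter windows are shown, 250 bases before to 50 after the start in RefSeq (build GRCm38.p6), read 5′ to 3′ on the strand of the gene. The Reg3b window is chr6:78370635-78370934 on the plus strand, and the Reg3g window is chr6:78468825-78469124 on the minus strand. Capitals mark matches, on either strand, to TTCNNNGAA (the core that STAT proteins bind) and TATAAA (the TATA box).
Reg3b: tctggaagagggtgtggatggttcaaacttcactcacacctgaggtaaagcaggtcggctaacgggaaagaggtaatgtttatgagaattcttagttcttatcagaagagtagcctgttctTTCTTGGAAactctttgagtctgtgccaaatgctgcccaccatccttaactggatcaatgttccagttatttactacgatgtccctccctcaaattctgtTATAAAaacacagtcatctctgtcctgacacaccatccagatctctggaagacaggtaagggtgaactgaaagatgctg
Reg3g: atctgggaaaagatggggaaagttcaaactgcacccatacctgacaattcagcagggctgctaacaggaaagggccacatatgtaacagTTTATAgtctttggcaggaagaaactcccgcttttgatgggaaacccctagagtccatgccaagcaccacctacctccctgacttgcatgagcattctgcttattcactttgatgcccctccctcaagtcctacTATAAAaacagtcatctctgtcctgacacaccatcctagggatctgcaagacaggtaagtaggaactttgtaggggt
The windows shared 71.4% of their aligned bases. TATAAA starts 29 bases before the Reg3b start and 27 before that of Reg3g, and Reg3g holds a second match, on the reverse strand, at 161 bases before. TTCNNNGAA occurs in the Reg3b window, from 129 to 121 bases before the start, and not in that of Reg3g. GCGTG, the core that AHR binds, is in neither. Among 32851 promoter windows of the same length, 32.4% hold GCGTG, 8.30% hold TTCNNNGAA and 13.6% hold TATAAA on either strand. Windows were found for 5 of the 8 members, Reg1, Reg3a, Reg3b, Reg3g and Reg4, and none of the 5 holds GCGTG. These matches describe letters only.

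Reg3b was much lower in the samples labelled Ahr-/- than in the other groups. It had 1566 to 15003 normalized counts in WT (median 7726), 144 to 845 in the samples labelled Ahr-/- (median 335) and 578 to 19454 in those labelled Ahrr-/- (median 7050). All WT samples lay above all samples labelled Ahr-/-, with WT F2 and M2 lowest in WT, while F2 labelled Ahrr-/- lay within the range of the samples labelled Ahr-/-. Reg3g had 1502 to 8953 normalized counts in WT (median 4656), 225 to 1100 in the samples labelled Ahr-/- (median 501) and 353 to 12561 in those labelled Ahrr-/- (median 5382). The same samples stood out: WT F2 and M2 were lowest in WT, WT M3 was highest, and F1 and F2 were the lowest and F3 and M3 the highest of those labelled Ahrr-/-. Again WT and the samples labelled Ahr-/- did not overlap, and the samples labelled Ahrr-/- overlapped with both.

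**Figure D1:**
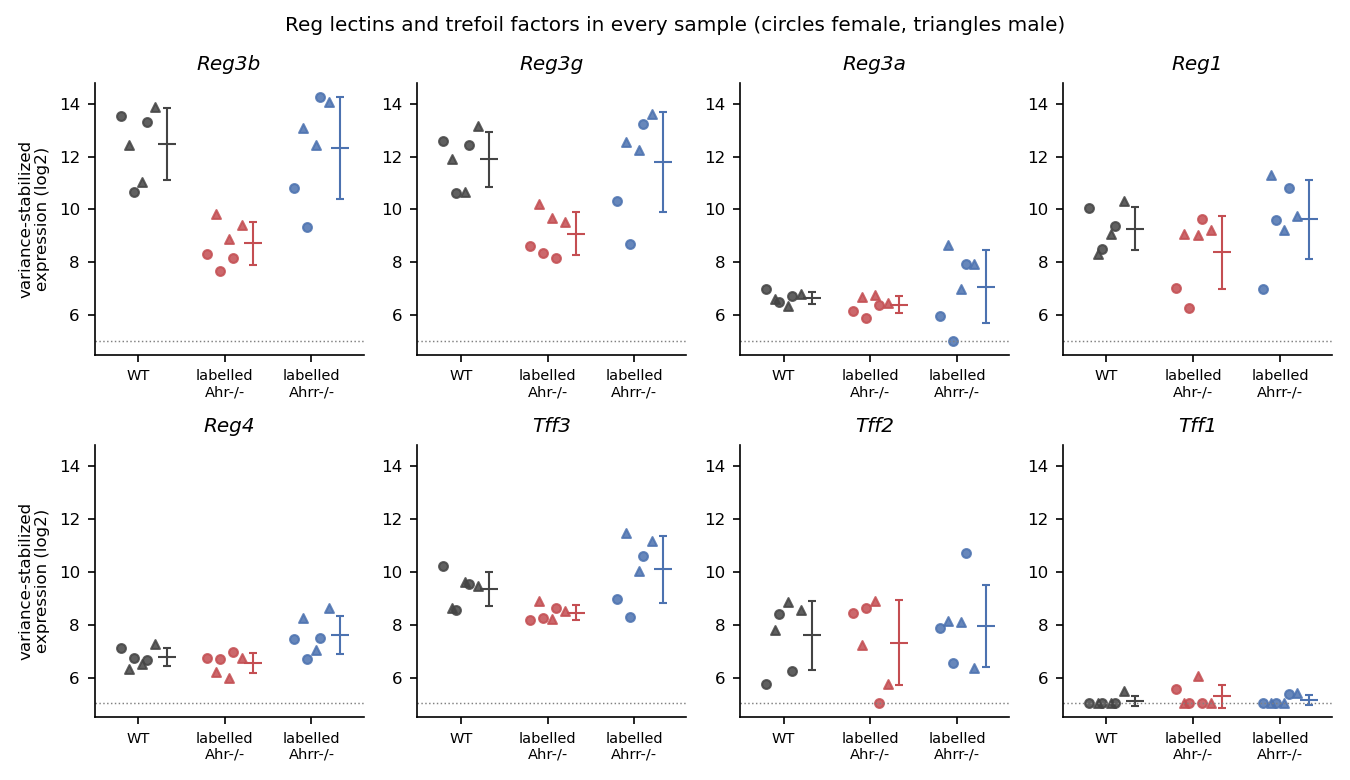
Deposited variance-stabilized expression (log2, vertical axis) of the 8 members in the 18 samples by group, 1 point per sample (circles female, triangles male), with the mean ± SD (n = 6) to the right of each group and a dotted line at the value of a count of 0 (5.02). Reg3b and Reg3g of the samples labelled Ahr-/- lie below every WT sample, whereas Tff2 scatters over most of its range in each group.

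In the test of WT against the samples labelled Ahr-/-, 3 of the 7 members tested were called, beside 8.84% of the 11346 genes tested (1003 genes). All 3 were higher in WT, a direction in which 3.68% of the genes were called, and 2 of the 7, Reg3b and Reg3g, did not overlap between the groups, beside 4.51% of the genes. On the log2 scale Reg3b averaged 12.48 in WT (SD 1.35, n = 6) against 8.71 in the samples labelled Ahr-/- (SD 0.82, n = 6), a difference of 3.76 (SE 0.49, adjusted p = 0.000112 from limma), or 18.3-fold in mean normalized counts. Reg3g averaged 11.89 (SD 1.04, n = 6) against 9.08 (SD 0.82, n = 6), a difference of 2.81 (SE 0.40, adjusted p = 0.000268 from limma), or 8.18-fold. The third, Tff3, is described with the trefoil factors. Tff1 lay under the minimum mean and was not tested, and the remaining 4 members were not called. The median difference of the 7 was 0.89, beside 0.00 over all genes tested.

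Between WT and the samples labelled Ahrr-/-, which shares the WT samples with the comparison before, 0 of the 7 members tested were called, beside 0.0779% of the 11546 genes tested (9 genes, all lower in WT). Without adjustment, 853 genes were under 0.05 in limma, among them 1 member, Reg4, and voom, applied to the recovered counts, called 0 members and 4 genes. Reg3b differed by 0.15 (95% interval -1.51 to 1.80, adjusted p = 0.958 from limma) and Reg3g by 0.11 (-1.37 to 1.58). These intervals are wide because Reg3b spread with an SD of 1.93 and Reg3g with an SD of 1.90 on the log2 scale over the samples labelled Ahrr-/-. The direction of both differences turned with the sample left out: without each of the 12 samples in turn, Reg3b ranged from -0.43 to 0.67 and Reg3g from -0.46 to 0.55. With the enterocyte sum as a further covariate, chosen after seeing the data, Reg3b differed by 1.35 (adjusted p = 0.387 from limma), Reg3g by 1.15 (adjusted p = 0.464 from limma) and Tff3, which differed by -0.74 without it, by -0.03, so the size of these differences depends on that setting.

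Between the samples labelled Ahr-/- and those labelled Ahrr-/-, a comparison that shares samples with each of the others, 4 of the 7 members tested were called, beside 14.9% of the 11474 genes tested (1708 genes). All 4 were higher in the samples labelled Ahrr-/-, a direction in which 8.04% of the genes were called, and 0 of the 7 were without overlap, beside 4.61% of the genes. Reg3b differed by -3.62 on the log2 scale (SE 0.59, adjusted p = 0.00126 from limma) and Reg3g by -2.70 (SE 0.53, adjusted p = 0.00541 from limma), and mean normalized counts were 21.2-fold and 10.3-fold higher in the samples labelled Ahrr-/-. The other 2 called were Tff3 and Reg4. The median difference was -1.24 for the 7 members and 0.00 for all genes tested. With the enterocyte sum as covariate, chosen after seeing the data, 1 member was called, Reg3b (-1.99, adjusted p = 0.0278 from limma), and 315 genes. Reg3g (-1.30, adjusted p = 0.202 from limma), Tff3 and Reg4 lost the call in that fit. Of 18 enterocyte markers, 0 were called between WT and the samples labelled Ahr-/-, but 8 were called lower in the samples labelled Ahr-/- than in those labelled Ahrr-/-. All 18 markers were lower in the samples labelled Ahr-/- than in those labelled Ahrr-/-, with a median difference of -1.004, beside 0.00 over all genes tested. None of the 8 calls held without M3 labelled Ahr-/-. Sis, the most abundant, lost its call without any 1 of 7 of the 12 samples (up to adjusted p = 0.0880 by limma). The difference of Sis ranged from -1.96 to -1.19 with each sample left out.

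**Figure D2:**
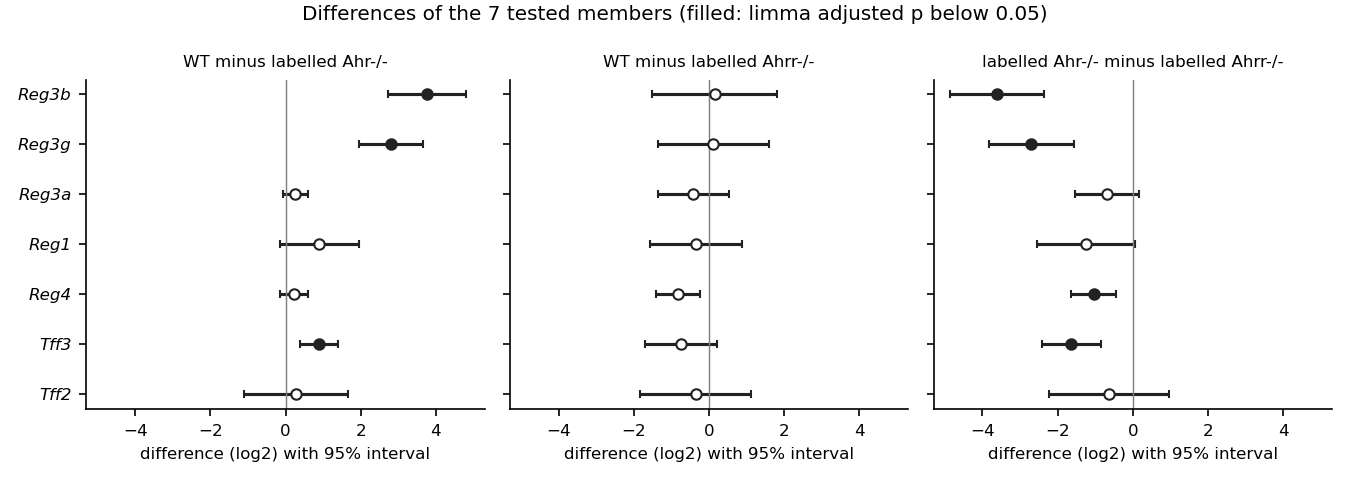
Differences of the 7 members tested in each genotype comparison (log2, horizontal axis) with 95% intervals, filled where the limma adjusted p was below 0.05. Reg3b and Reg3g are the members farthest from 0 in both comparisons with the samples labelled Ahr-/- and lie close to 0, with wide intervals, between WT and the samples labelled Ahrr-/-.

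Reg3b and Reg3g did not fall in step. Per kilobase of transcript, Reg3b was 1.03 to 1.93 times Reg3g in WT (mean 1.52 ± 0.337, SD, n = 6) and 1.12 to 1.98 times Reg3g in the samples labelled Ahrr-/- (1.48 ± 0.293, SD, n = 6). In the samples labelled Ahr-/- it was 0.531 to 0.976 times Reg3g (0.748 ± 0.182, SD, n = 6), so Reg3g was the higher of the pair in all 6. The log2 ratio differed by 1.03 between WT and the samples labelled Ahr-/-, and it was lower in the latter than in the samples labelled Ahrr-/- (-1.08 to -0.91 with each sample left out), with no overlap in either comparison. Both gave p = 0.00216 by an exact two-sided permutation test, the smallest p that 6 against 6 samples allow, and an adjusted p of 0.00325 over the 3 comparisons by exact permutation. WT and the samples labelled Ahrr-/- differed by 0.02 (exact permutation p = 0.896).

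**Figure D3:**
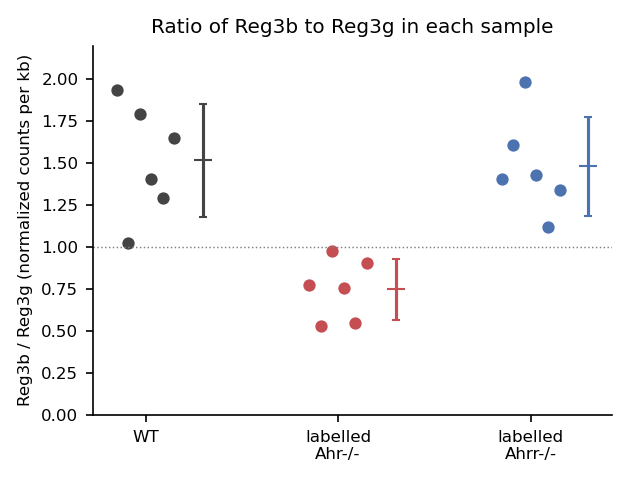
Ratio of Reg3b to Reg3g per kilobase of transcript (vertical axis, linear) in each sample by group. All 6 samples labelled Ahr-/- lie between 0.531 and 0.976, below every sample of the other groups.

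Over the samples, the pair moved together. With genotype means removed, Reg3b and Reg3g had a Pearson r of 0.98 (permutation p = 1e-05, the smallest the 100000 permutations can give) and a Spearman rho of 0.98 (permutation p = 1e-05) over 18 samples, with an adjusted p of 0.00021 over the 21 pairs of tested members. Without the 2 samples farthest from the median of Reg3b, r was 0.98, and within the groups of 6 it was 0.99 in WT, 0.93 in the samples labelled Ahr-/- and 0.99 in those labelled Ahrr-/-. Among the 11468 genes tested over all 18 samples, Reg3g had the highest r with Reg3b of all genes, 0.99 on the deposited scale.

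Per kilobase of transcript, the order of the mean levels in WT was Reg3b (9763 ± 7000, SD, n = 6), Reg3g (5910 ± 3725), Tff3 (1301 ± 615), Reg1 (833 ± 506), Tff2 (337 ± 272), Reg3a (57.6 ± 17.6), Reg4 (56.1 ± 25.5) and Tff1 (0.849 ± 2.08), in normalized counts per kilobase. Of these neighbours, Tff3 and Reg1 as well as Reg3a and Reg4 differed by less than either SD. The samples labelled Ahrr-/- had the same order, led by Reg3b (11276 ± 10074) and Reg3g (7468 ± 6143). In the samples labelled Ahr-/- Reg3g (722 ± 447) came first, followed by Tff3 (596 ± 144), Reg3b (533 ± 344) and Reg1 (500 ± 361), 4 genes whose means lay within their SDs.

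Reg3a, another lectin gene of the same cluster, from 78380709 to 78383839 on chromosome 6, was weakly counted. It had 29.4 to 70.0 normalized counts in WT (median 46.3), 11.9 to 52.7 in the samples labelled Ahr-/- (median 33.4) and 0 to 338 in those labelled Ahrr-/- (median 125). The groups overlapped, and the samples labelled Ahrr-/- held both the lowest value, in F2, where a count of 0 allows up to 3.22 normalized counts (3 counts, counting error only), and the highest, in M1. The log2 difference was 0.26 between WT and the samples labelled Ahr-/- (SE 0.16, adjusted p = 0.330 from limma), -0.42 between WT and those labelled Ahrr-/- and -0.69 between the latter groups (adjusted p = 0.250 from limma).

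Reg1, on chromosome 6 from 78425983 to 78428668, encodes the first described Reg protein, a growth-promoting factor of pancreas and stomach. It had 259 to 1227 normalized counts in WT (median 537), 25.7 to 734 in the samples labelled Ahr-/- (median 468) and 71.1 to 2482 in those labelled Ahrr-/- (median 756). F1 and F2 of the samples labelled Ahr-/- and F1 of those labelled Ahrr-/- were the only samples under 100 among the 18, and the ranges overlapped. WT minus the samples labelled Ahr-/- was 0.90 (SE 0.50, adjusted p = 0.296 from limma), with a 95% interval of -0.16 to 1.95. It differed by -0.35 between WT and the samples labelled Ahrr-/- and by -1.24 between the groups labelled Ahr-/- and Ahrr-/- (adjusted p = 0.173 from limma).

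Reg4, on chromosome 3 from 98222138 to 98236748, lies apart from the cluster, and its product binds sugars without calcium. It had 29.1 to 96.7 normalized counts in WT (median 49.3), 15.1 to 68.8 in the samples labelled Ahr-/- (median 49.8) and 50.5 to 331 in those labelled Ahrr-/- (median 120). The samples labelled Ahrr-/- were the highest as a group, led by M3 and M1, but overlapped with both others. Reg4 was lower in the samples labelled Ahr-/- than in those labelled Ahrr-/- by a log2 difference of -1.05 (SE 0.28, adjusted p = 0.0256 from limma). That call was lost without any 1 of 5 samples, M1, M2 and M3 labelled Ahr-/- and M1 and M3 labelled Ahrr-/-, with adjusted p from 0.0525 to 0.0673 by limma. WT minus the samples labelled Ahrr-/- was -0.83 (SE 0.28, adjusted p = 0.572 from limma), and WT minus those labelled Ahr-/- was 0.22 (SE 0.18, adjusted p = 0.489 from limma).

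The other Reg genes of the cluster, Reg2 and Reg3d, lay under the minimum mean. Reg2 had 0 to 104 normalized counts in WT (median 28.0), highest in M3 and 0 in M2, at most 0.941 in the samples labelled Ahr-/- and at most 1.26 in those labelled Ahrr-/-. Reg3d had at most 8.26, 2.28 and 10.7 normalized counts in the same order. Of the 23 markers of pancreatic acinar cells, which make Reg1 and Reg2 in the mouse, 10 were tested between WT and the samples labelled Ahr-/-, and 5 were called, all higher in WT. Most of the 10 passed the minimum mean only through WT, where they are high, so their shared direction follows in part from the minimum and is no support for a difference. Ctrb1, the most abundant, differed by 2.74 (SE 0.69, adjusted p = 0.0206 from limma), and 2210010C04Rik by 2.15 and Cela2a by 1.55. Ctrb1 lost its call without WT F3 or without F2 or F3 labelled Ahr-/- (up to adjusted p = 0.0544 by limma), 2210010C04Rik without WT F3 or without F1 or F3 of that label, and Cela2a without any sample of that label but M1. Without WT F1, F2, F3 or M3, Cela2a and Prss2 lay under the minimum mean and were not tested. The other 2 were Ctrl, lost without any 1 of 9 of the 12 samples (up to adjusted p = 0.0912 by limma), and Prss2, lost without any 1 sample labelled Ahr-/- (up to adjusted p = 0.105 by limma). Ctrb1, Ctrl and Prss2 were not called by voom (adjusted p = 0.126, 0.0621 and 0.133 from limma voom). All 23 acinar markers together summed to 104 to 5685 normalized counts in WT (median 1862), 58.3 to 717 in the samples labelled Ahr-/- (median 117) and 109 to 3309 in those labelled Ahrr-/- (median 308). Of the 23, Prss1, Try10 and Cela3a had at most 3 counts in any sample. Of the list, 0 of 12 tested were called between WT and the samples labelled Ahrr-/- and 1 of 4, Clps, was called lower in those labelled Ahr-/- than in those labelled Ahrr-/-, a call lost without any 1 of 7 of the 12 samples (up to adjusted p = 0.0743 by limma). Over the 18 samples with genotype means removed, the acinar sum had r = 0.39 with Reg1 (permutation p = 0.103, adjusted p = 0.157 by permutation over 35 relations), rho = 0.43 (permutation p = 0.0743) and r = 0.15 without the 2 samples farthest in the sum. With Reg4 it had r = 0.57 (permutation p = 0.0130, adjusted p = 0.0350 by permutation), rho = 0.65 (permutation p = 0.00436) and r = 0.41 without 2 samples. No fit with the acinar sum as covariate was made. Reg1 had r = 0.78 with the enterocyte sum (permutation p = 0.00025, adjusted p = 0.00146 by permutation), rho = 0.80 (permutation p = 0.00036) and r = 0.78 without 2 samples.

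The trefoil factor genes lie side by side on chromosome 17, Tff3 from 31125306 to 31129611, Tff2 from 31141062 to 31144282 and Tff1 from 31161395 to 31165060. Tff3, the goblet cell trefoil factor, had 315 to 1143 normalized counts in WT (median 665), 231 to 410 in the samples labelled Ahr-/- (median 274) and 248 to 2769 in those labelled Ahrr-/- (median 1235). WT F2 and M1 lay within the range of the samples labelled Ahr-/-, as did F2 of those labelled Ahrr-/-, where M1 and M3 were highest. Tff3 was higher in WT than in the samples labelled Ahr-/- by 0.89 on the log2 scale (SE 0.24, adjusted p = 0.0293 from limma), or 2.18-fold in mean normalized counts. The call was lost without any 1 of 7 of the 12 samples, WT F3, M2 and M3 and F1, F2, M2 and M3 labelled Ahr-/-, with adjusted p from 0.0549 to 0.0767 by limma. It was also lost with no minimum mean and with all 18 samples in 1 fit (adjusted p = 0.0645 and 0.234 from limma). Tff3 was lower in the samples labelled Ahr-/- than in those labelled Ahrr-/- by -1.64 (SE 0.37, adjusted p = 0.0119 from limma), a call that held without each of the 12 samples. With the enterocyte sum as covariate this call was lost (-0.57, adjusted p = 0.412 from limma). WT minus the samples labelled Ahrr-/- was -0.74 (SE 0.45, adjusted p = 0.682 from limma).

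Tff2 varied more within the groups than between them. It had 8.31 to 397 normalized counts in WT (median 218), 0 to 409 in the samples labelled Ahr-/- (median 187) and 30.3 to 1610 in those labelled Ahrr-/- (median 193). Low and high samples were found in every group: WT F1 and F3, F3 and M3 labelled Ahr-/- and M3 and F2 labelled Ahrr-/- lay at or under 39.8, and F3 labelled Ahrr-/- was far above the rest. The log2 differences were 0.28 (SE 0.65), -0.36 (SE 0.69) and -0.63 (SE 0.75) for WT against the samples labelled Ahr-/-, WT against those labelled Ahrr-/- and the last pair, with adjusted p of 0.839, 0.874 and 0.590 from limma. The first ranged from -0.16 to 0.65 and the second from -0.76 to 0.29 with each sample left out, so the direction of neither was settled.

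Tff1 had 0 counts in 13 of the 18 samples, where 0 counts allow up to 2.27 to 6.19 normalized counts. It had 3 counts in WT M3, 6 and 18 in F1 and M2 labelled Ahr-/- and 3 and 4 in F3 and M3 labelled Ahrr-/-. Gkn1 and Gkn2, which encode gastrokines of the stomach and were picked from the list of binding partners after their values were seen, were highest in the 3 samples WT M3 and F1 and M2 labelled Ahr-/-. Gkn1 had 87, 68 and 170 counts there and at most 8 in any other sample, and Gkn2 had 81, 51 and 136 and at most 9 elsewhere. Low counts of both were also found in samples with 0 counts of Tff1, such as 9 of Gkn2 in M1 labelled Ahrr-/-.

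Genes most alike to Tff2 over the 18 samples on the deposited scale, looked up after the values were seen, were the gastrokine gene Gkn3 (r = 0.95) and Muc6 (r = 0.94), the mucin of the glands that secrete TFF2. Muc6 had 13.1 to 1135 normalized counts in WT, 15.1 to 1067 in the samples labelled Ahr-/- and 45.1 to 3010 in those labelled Ahrr-/-. The samples low in Tff2 were low in Muc6, and F3 labelled Ahrr-/- was highest in both. Of the list of 11 receptors and binding partners of Reg proteins and trefoil factors, 10 had values and 5 were tested in each comparison. Cxcr4, a receptor through which TFF2 can signal, was called lower in WT than in the samples labelled Ahr-/-, by -0.79 (SE 0.23, adjusted p = 0.0402 from limma), and the other 4 were not called. The Cxcr4 call was lost without WT F1, F3, M2 or M3 or without F1, F2, F3 or M3 labelled Ahr-/- (up to adjusted p = 0.106 by limma). Extl3, a receptor for Reg proteins, differed by -0.03. None of the 5 was called between WT and the samples labelled Ahrr-/-, where the list's median was -0.25, beside -0.01 over all genes. Egfr (-0.91) and Fcgbp (-1.38), which encodes a mucus protein that binds TFF3, were called lower in the samples labelled Ahr-/- than in those labelled Ahrr-/-, Fcgbp not without M2 or M3 labelled Ahr-/- (up to adjusted p = 0.0513 by limma). With the enterocyte sum as covariate neither was called (adjusted p = 0.372 and 0.536 from limma).

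Genes of the pathway that induces Reg3 genes were described from a list of 16, with Jak1 the most abundant. Il22, which encodes the inducing cytokine, had at most 3 counts in any sample. Il22ra1, for its receptor chain, had 22.1 to 126 normalized counts in WT, 22.9 to 88.8 in the samples labelled Ahr-/- and 23.6 to 160 in those labelled Ahrr-/-, so the groups overlapped. Between WT and the samples labelled Ahr-/-, where Reg3b and Reg3g differed most clearly, 0 of the 12 genes tested were called, beside 8.84% of all genes tested. They lay 6 in each direction, with a median difference of 0.00. The transcript of Stat3 differed by -0.04 (SE 0.12, adjusted p = 0.868 from limma). Between WT and the samples labelled Ahrr-/-, 1 of 14 was called, Tlr2, a receptor for bacterial lipoproteins (-0.85, SE 0.15, adjusted p = 0.0464 from limma). It lost the call without each of the 12 samples but WT F3 (up to adjusted p = 0.165 by limma). In the comparison of the samples labelled Ahr-/- with those labelled Ahrr-/-, 5 of 14 were called, beside 14.9% of all genes tested. All 5 were lower in the former, a direction in which 8.04% of the genes were called. The list was not split into genes that drive and genes that restrain the pathway, so this direction is no measure of induction. The largest differences were those of Il22ra2 (-1.06), Il6st (-0.77) and Il6ra (-0.66). Each of these 3 lost the call without F1, F2, M1 or M3 labelled Ahr-/- or M3 labelled Ahrr-/-, among others, with adjusted p up to 0.0877, 0.0902 and 0.103 by limma.

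Other antimicrobial genes were described from a list of 22, led by Lyz1. Between WT and the samples labelled Ahr-/-, 13 were tested and 1 was called, beside 8.84% of all genes tested, so the count is near that share. It was Duox2, a subunit of an epithelial oxidase, which was higher in WT by 0.91 (SE 0.24, adjusted p = 0.0241 from limma). It lost the call without WT F3 or M3 or without F2, F3 or M3 labelled Ahr-/- (up to adjusted p = 0.0643 by limma). The list's median difference was -0.21, beside 0.00 over all genes. Between WT and the samples labelled Ahrr-/-, 2 of 16 were called, S100a8 (-2.06) and S100a9 (-2.10), neutrophil calprotectin genes that were lower in WT without overlap. Against the samples labelled Ahrr-/-, 6 of 15 were called lower in those labelled Ahr-/-, beside 8.04% of all genes tested. They were led by Lyz1 (-1.91), Itln1 (-1.86) and Ang4 (-1.81), of which Lyz1 lost the call without M1 or M2 labelled Ahr-/- or M3 labelled Ahrr-/- (up to adjusted p = 0.0643 by limma). With the enterocyte sum as covariate all 3 lost the call (adjusted p = 0.442, 0.269 and 0.390 from limma).

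No member was called between the sexes. In the fit of all 18 samples with genotype as covariate, 0 of the 7 members tested were called, beside 3.06% of the 11468 genes tested (351 genes). Unadjusted, 2145 genes were under 0.05 in limma, and voom called 340 genes and 0 members. All 7 members had negative female minus male differences, with a median of -0.63, beside -0.01 over all genes. Reg3g had the largest, -1.17 (SE 0.48, adjusted p = 0.198 from limma), followed by Reg3b (-1.01, SE 0.55, adjusted p = 0.330 from limma), while Reg4 differed by -0.05 and was 0.10 on the scale of log2 of the normalized count + 1. Reg3b averaged 12.50 in WT females (SD 1.59, n = 3) and 12.45 in WT males (SD 1.42, n = 3). In females labelled Ahr-/- it averaged 8.04 (SD 0.33, n = 3), below all 3 males of that label (9.38, SD 0.47, n = 3). Whether the difference between WT and the samples labelled Ahr-/- depended on sex was tested with an interaction term. Of the 7 members 0 were called, beside 0% of the 11346 genes tested, with 533 genes at unadjusted p < 0.05 by limma, while voom called 0 genes and had 549 at that level. For Reg3b the interaction, males minus females, was -1.39 (SE 0.95, adjusted p = 0.954 from limma), and for Reg3g it was -1.39 (SE 0.74).

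The levels of epithelial cell type markers were set beside those of the members. Goblet cell markers, 7 of 8 with values and led by Fcgbp, summed to 4481 to 13497 normalized counts in WT (median 7239), 3488 to 4437 in the samples labelled Ahr-/- (median 3870) and 3065 to 27851 in those labelled Ahrr-/- (median 15983). Of the 5 tested, 4 were called higher in WT than in the samples labelled Ahr-/-, the direction of Tff3: Spink4 (1.20), Zg16 (0.96), Clca1 (0.85) and Agr2 (0.67), the last lost without each sample but WT F2, WT M1 and F1 labelled Ahr-/- (up to adjusted p = 0.0779 by limma). Clca1 was lost without WT F3 or M2 or any sample labelled Ahr-/- but M1 (up to adjusted p = 0.0830 by limma). With all 18 samples in 1 fit all 4 lost the call, as Tff3 did (adjusted p = 0.0655 for Spink4, 0.234 for Zg16, 0.230 for Clca1 and 0.366 for Agr2 from limma). None of the 5 was called between WT and the samples labelled Ahrr-/-, and all 5 were called lower in those labelled Ahr-/- than in those labelled Ahrr-/-. In that comparison Agr2 lost the call without any 1 of 7 of the 12 samples (up to adjusted p = 0.0869 by limma), Clca1 without any 1 of 3, Fcgbp without M2 or M3 labelled Ahr-/- and Zg16 without M1 labelled Ahr-/-. With the enterocyte sum as covariate, none of these goblet cell markers was called there. Between WT and the samples labelled Ahr-/-, Clca1 (0.69) and Agr2 (0.53) also lost the call with this covariate (adjusted p = 0.0660 for both from limma). Paneth cell markers, 9 genes led by Lyz1, summed to 1869 to 15260 normalized counts in WT, 1444 to 8633 in the samples labelled Ahr-/- and 8579 to 73797 in those labelled Ahrr-/-. Of these, 0 of 8 were called in the first comparison and 0 of 9 in the second. In the second all 9 were lower in WT, with a median of -1.46, beside -0.01 over all genes. In the third 8 of 9 were called, all lower in the samples labelled Ahr-/- like Reg4. Defa22 lost the call without any 1 of 8 of the 12 samples (up to adjusted p = 0.0910 by limma) and Defa17 and Lyz1 each without any 1 of 3, M1 or M2 labelled Ahr-/- or M3 labelled Ahrr-/-. With the enterocyte sum as covariate none of the 8 was called (adjusted p at least 0.249 from limma). Enterocyte markers had a median difference of 0.45 in the first comparison, with 12 of 18 higher in WT. In the second 0 of 18 were called, but all 18 were lower in WT, with a median of -0.73, beside -0.01 over all genes. In the third all 18 were lower in the samples labelled Ahr-/-. Apart from the enterocyte sum, which was also used as a covariate, the part of these cell types in the members' differences was not tested.

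The relation of 7 members to 5 summed marker lists was computed over the 18 samples with genotype means removed, 35 relations in all. Tff3 followed the goblet cell sum with r = 0.93 (permutation p = 0.00011, adjusted p = 0.00084 by permutation) and rho = 0.86 (permutation p = 0.00023), and r was 0.93 without the 2 samples farthest in that sum. Within groups of 6 it was 0.96 in WT, 0.41 in the samples labelled Ahr-/- and 0.94 in those labelled Ahrr-/-. Reg4 followed the Paneth cell sum with r = 0.85 (permutation p = 9e-05, adjusted p = 0.00084 by permutation), rho = 0.92 (permutation p = 1e-05) and r = 0.80 without 2 samples, and with r of 0.88, 0.98 and 0.84 within the groups in the same order. Reg3b followed the enterocyte sum with r = 0.84 (permutation p = 0.00012, adjusted p = 0.00084 by permutation), rho = 0.79 (permutation p = 0.00094) and r = 0.82 without 2 samples, and the groups gave 0.78, 0.54 and 0.94. These relations are not particular to 1 cell type: Reg3b had r = 0.81 with the goblet cell sum (permutation p = 0.00134, rho = 0.74 with permutation p = 0.00479, adjusted p = 0.00586 by permutation, r = 0.73 without 2 samples). Tff3 had r = 0.87 with the enterocyte sum (permutation p = 9e-05, rho = 0.80 with permutation p = 0.00088, adjusted p = 0.00084 by permutation, r = 0.82 without 2 samples). With the eosinophil sum Reg3b had r = -0.78 (permutation p = 0.00258, adjusted p = 0.00900 by permutation), rho = -0.81 (permutation p = 0.00086) and r = -0.80 without 2 samples. Tff2 had r between -0.15 and 0.09 with the 5 sums, none past the threshold by permutation.

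**Figure D4:**
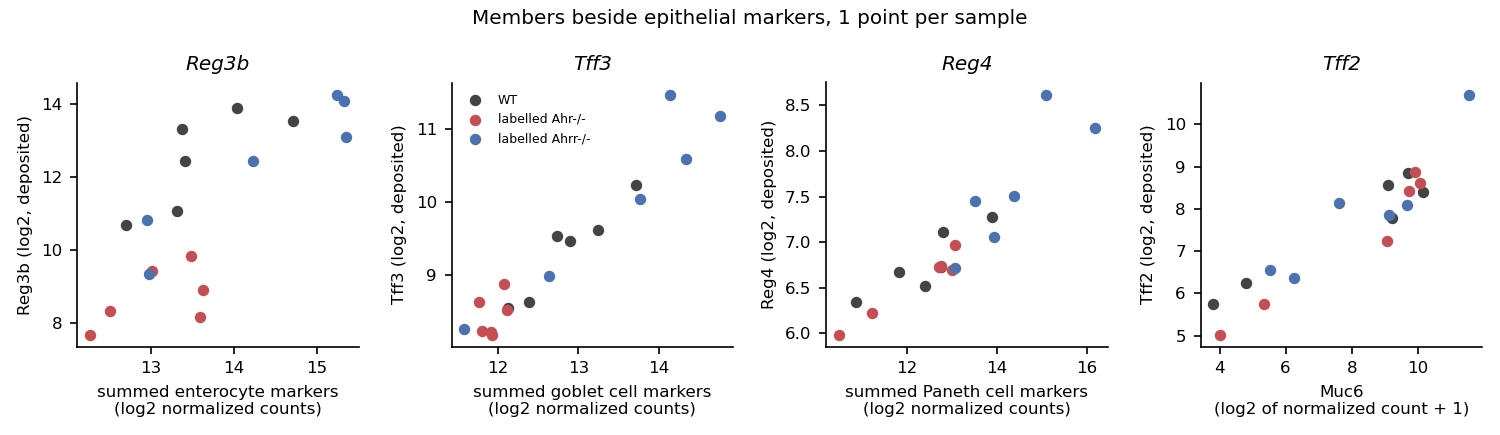
Deposited expression (log2, vertical axes) of Reg3b, Tff3, Reg4 and Tff2 against the summed enterocyte, goblet cell and Paneth cell markers (log2 normalized counts) and against Muc6 (log2 of normalized count + 1), 1 point per sample in the colour of its group. In the Reg3b panel the samples labelled Ahr-/- lie under the WT samples of like enterocyte sum, whereas in the other 3 panels the groups lie along 1 band.

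The members were also set against the enterocyte sum. Reg3b was 20.1 to 94.7% of the summed enterocyte markers in WT (median 47.0%), 1.80 to 7.55% in the samples labelled Ahr-/- (median 3.82%) and 7.15 to 50.2% in those labelled Ahrr-/- (median 25.2%). Reg3g was 15.3 to 53.1%, 1.82 to 9.61% and 4.37 to 30.6% in the same order. For both genes every WT sample was above every sample labelled Ahr-/-. Tff3 was 3.09 to 7.08%, 1.87 to 4.87% and 3.07 to 6.65%, with overlap of all groups. With the log2 enterocyte sum of each sample as a further covariate, a setting chosen after seeing the data, WT minus the samples labelled Ahr-/- was 3.19 for Reg3b (adjusted p = 1.82e-05 from limma), 2.39 for Reg3g (adjusted p = 9.54e-05 from limma) and 0.60 for Tff3. Between the samples labelled Ahr-/- and those labelled Ahrr-/-, where the enterocyte sums differed most, Reg3b was -1.99 with this covariate (adjusted p = 0.0278 from limma), and the calls of Reg3g (-1.30, adjusted p = 0.202), Tff3 (-0.57, adjusted p = 0.412) and Reg4 (-0.56, adjusted p = 0.528, all from limma) were lost. Of the genes other than members on any list that were called in that comparison, Ahrr, Cyp1b1, Tiparp, Nqo1, Prg2, Csf2rb, Mmp8 and S100a9 (adjusted p = 0.0499 from limma) were called with this covariate, and every other one was not.

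Among the 21 pairs of tested members, Reg3a joined Reg3b and Reg3g. Reg3a and Reg3b had r = 0.82 (permutation p = 0.00027, adjusted p = 0.00147 by permutation), rho = 0.86 (permutation p = 6e-05) and r = 0.83 without 2 samples, and Reg3a and Tff3 had r = 0.89 (permutation p = 0.00017), rho = 0.77 (permutation p = 0.00307) and r = 0.76 without 2 samples. Reg3b and Tff3 had r = 0.79 (permutation p = 0.00266, adjusted p = 0.0112 by permutation), rho = 0.75 (permutation p = 0.00323) and r = 0.80 without 2 samples. Tff2 was apart from the other 6, with r from -0.24 to 0.15.

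Genes most alike to Reg3b and Tff3 were ranked by r over the 18 samples among 11468 genes, without a test. On the deposited scale those nearest to Reg3b outside the members were Atp1b1 (r = 0.93), Ceacam1 (0.93), Tpx2 (0.92), Aspm (0.91) and Dmd (0.91), followed by Oxct1, 2900026A02Rik, Cd38, Ect2 and Stxbp6. With genotype and sex means removed they were Eif1a (0.95), Cdk1 (0.93), Rab17 (0.93), Lgr4 (0.93), Kbtbd11, Tspan1, Ddx1, Nr5a2, Pclaf and Krt20. The genes nearest to Tff3 on the deposited scale were Zg16 (0.96), Ndrg1 (0.95), Agr2 (0.95), Guca2a (0.95) and Gpat3 (0.95), then Apoo, Rfk, Smim31, Spink1 and Cdhr5, of which Zg16 and Agr2 are on the list of goblet cell markers. With genotype and sex means removed, Apoo (0.94), Ifi27l2b (0.94), Zfp764 (0.94), Smim31 (0.94) and Guca2a (0.93) led, followed by Aldh9a1, Zfp599, Net1, Garem1 and Slc15a1.

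Markers of other cells that the sort could hold were read in the same way. In the comparison of WT with the samples labelled Ahr-/-, in which Reg3b, Reg3g and Tff3 were called, 1 of 7 eosinophil markers was called higher in WT (Csf2rb) and 2 lower (Prg2 and Alox15). Called lower in WT was 1 of 8 macrophage and dendritic cell markers (Csf1r). Pecam1, the only 1 of 5 listed endothelial markers that was tested, was called higher. Of 5 neutrophil markers, 1 was called higher (Mmp8) and 1 lower (Cxcr2). Called in neither direction were the 2 tested T cell and innate lymphocyte markers, 3 B and plasma cell markers, 1 mast cell marker and 2 fibroblast markers. In the comparison of WT with the samples labelled Ahrr-/-, with 0 members called, the neutrophil markers S100a8 and S100a9 were called and none of the others. In the third comparison, 4 of 7 eosinophil markers were called higher in the samples labelled Ahr-/- (led by Prg2, 2.07) and 1 lower (Csf2rb), 3 of 5 neutrophil markers lower, and 1 each of the macrophage (C1qb), B and plasma cell (Jchain, -3.20), fibroblast (Col1a2) and endothelial (Cdh5) markers lower. The calls of C1qb, Col1a2 and Cdh5 were lost without any 1 of 10, 8 and 7 of the 12 samples (up to adjusted p = 0.106, 0.0892 and 0.0774 by limma), and also without the sex covariate. Alox15 lost its call without any 1 of 5 of the 12 samples in the first comparison (up to adjusted p = 0.0589 by limma; 0.157 by limma with all 18 samples in 1 fit) and without any 1 of 7 in the third (up to 0.0913). With the enterocyte sum as covariate, Alox15, Il5ra and Siglecf, 3 of the 4 eosinophil markers called higher in the third comparison, lost the call, as did Jchain (adjusted p = 0.146 from limma) and S100a8 (adjusted p = 0.163 from limma). In that comparison 0 of 2 T cell and 0 of 1 mast cell markers were called. Median sums in WT, the samples labelled Ahr-/- and those labelled Ahrr-/- were 548, 286 and 3898 normalized counts for B and plasma cell markers (led by Jchain) and 2544, 2364 and 4173 for macrophage and dendritic cell markers (Cd74). They were 835, 1173 and 2200 for neutrophil markers (Cxcr2) and 83.9, 109 and 188 for mast cell markers (Kit). For fibroblast markers (Col3a1) they were 85.7, 77.1 and 317, and for endothelial markers (Pecam1) 3282, 2055 and 2768. The endothelial sum is mostly the level of 1 gene. Pecam1 had means of 3169, 2021 and 2640 normalized counts, beside mean sums of 3234, 2051 and 2765. The part of these cell types in the members' differences was not tested.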

How the data were processed

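RNA of 18 samples of sorted small intestinal eosinophils was sequenced by the authors. According to the submitters' processing notes, STAR 2.5.2, RSEM 1.3.0, DESeq2 and R 4.0.3 were used with GRCm38. What the authors deposited are log2 values after variance stabilization of library-size corrected counts. Inverting the transformation gave whole counts for 100% of values (tolerance 0.0001), with 3842977 to 12046933 per sample. No pair of samples of a group agreed within sampling noise (chi-square per degree of freedom at least 7.82). Genes were taken by symbol. limma 3.58.1 in R 4.3.3 fitted each gene with genotype, sex and a mean-variance trend, over genes at least 1 above the lowest value in the mean, with Benjamini-Hochberg adjustment, and was tested on simulated data. Correlations used 100000 permutations. Alternatives were other minimum means (none, 3), centring, quantile normalization, no trend, a replicate block, no sex covariate, all 18 samples in 1 fit, log2 of the normalized count + 1, limma voom, leaving out each sample, and, chosen after seeing the data, the enterocyte sum as covariate. Lists held AHR targets, the Reg3 induction pathway, receptors and binding partners, other antimicrobial genes and markers of enterocytes, goblet, Paneth, acinar, eosinophil, macrophage and dendritic, T and innate lymphocyte, B and plasma, neutrophil, mast, fibroblast and endothelial cells. Named were the members, Ahr, Ahrr, Reg2, Reg3d, the most abundant gene of a list, up to 3 called genes with the largest differences in each direction, and the 10 genes most alike to Reg3b and Tff3. Other named genes (Epx, Il22, Il22ra1, Stat3, Extl3, Muc6, Gkn1, Gkn2, Gkn3 and markers near 0) were chosen after their values were seen. The summed level of the T cell and innate lymphocyte markers is not reported here. The members and lists were chosen with earlier results of these data known. Figures were drawn with matplotlib 3.10.9, sequences read with Biopython 1.88, and tables and permutations computed with scipy 1.17.1, pandas 2.3.3 and numpy 2.4.6 under Python 3.11.15.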

Additional observations from a re-analysis of the deposited data

Results flagged for a closer look

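Of the 24 groups of 6 samples formed by the 8 members and 3 genotypes, 1 held a sample far from the others: Tff1 in WT M3, whose gap to the nearest WT sample made up the whole range of the group (a share of 1), because it had 3 counts and the other 5 WT samples had 0. Chance marks about 1 in 20 groups of normally distributed values in this way, a rate that does not apply to 5 values tied at 0 counts. With 3 counts the value is at the limit that a count of 0 allows.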

How the results depend on the processing

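Reg3b and Reg3g stayed called, higher in WT than in the samples labelled Ahr-/-, under all 11 alternative settings (Reg3b at least 3.19, Reg3g 2.39 to 2.98 on the log2 scale) and without each of the 12 samples (3.46 to 4.15 and 2.58 to 3.16). Between the samples labelled Ahr-/- and those labelled Ahrr-/-, both held without each sample (-4.11 to -3.02 and -3.19 to -2.18) and under all settings but 1, the enterocyte sum as covariate, chosen after seeing the data, with which Reg3g was -1.30 and 1 member was called. That covariate turned Reg1 to 0.28 and Reg3a to 0.53 in this comparison, and Reg1 to 0.43, Reg3a to 0.24 and Ahr to -0.12 between WT and the samples labelled Ahrr-/-, where it moved Reg3b to 1.35, Reg3g to 1.15 and Tff3 to -0.03, none of them called. The cause was not tested. Tff3 in WT against the samples labelled Ahr-/- lost its call with no minimum mean (adjusted p = 0.0645 from limma), where more genes were tested, and with all 18 samples in 1 fit (adjusted p = 0.234 from limma). Without F1 labelled Ahrr-/- Reg1 (adjusted p = 0.0422 from limma) and without F2 labelled Ahrr-/- Reg3a (adjusted p = 0.0374 from limma) gained a call against the samples labelled Ahr-/-. Reg4 between the sexes was 0.10 on the scale of log2 of the normalized count + 1.

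The number of genes called between WT and the samples labelled Ahr-/- was 1003 and fell to 553 with all 18 samples in 1 fit (623 to 1124 without each sample). Between WT and those labelled Ahrr-/- it was 9 and became 4 with no minimum mean, centring, log2 of the normalized count + 1 or limma voom, 5 with the stricter minimum or quantile normalization, 14 with all 18 samples and 16 with the enterocyte sum (4 to 25 without each sample). Between the samples labelled Ahr-/- and Ahrr-/- it was 1708 and became 828 with the stricter minimum, 994 without the sex covariate and 315 with the enterocyte sum (818 to 2574 without each sample). Between the sexes it was 351 and became 163 with no minimum mean (142 to 733 without each sample). The interaction gave 0 throughout (0 to 0).

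Without each sample in turn, differences near 0 changed sign: Tff2 ranged from -0.16 to 0.65 in WT against the samples labelled Ahr-/-, from -0.76 to 0.29 in WT against those labelled Ahrr-/- and from -0.64 to 0.0795 between the sexes. Reg3b ranged from -0.43 to 0.67 and Reg3g from -0.46 to 0.55 in WT against the samples labelled Ahrr-/-, Reg4 from -0.13 to 0.0947 between the sexes and Tff3 from -0.84 to 0.00064 in the interaction. The log2 ratio of Reg3b to Reg3g ranged from 0.93 to 1.13, from -0.0519 to 0.13 and from -1.08 to -0.91 in the 3 genotype comparisons.

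Samples of the same number did not deviate together more than others did. Over 18 same-number pairs, r was -0.59 to 0.47 with a median of -0.02, and over 36 pairs of other numbers the median was also -0.02. Of 18 samples, 6 correlated best with their own number. The deviations were taken from means of only 3 samples, so whether the numbers pair the samples is not settled. With the number as a replicate block, 918, 4, 1946, 442 and 0 genes were called in the 5 comparisons, and 3, 0, 5, 0 and 0 members. The added member was Reg1 between the samples labelled Ahr-/- and Ahrr-/- (adjusted p = 0.0349 from limma).

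The share of called genes higher in the samples labelled Ahr-/- than in those labelled Ahrr-/- was 46.0%. It was 54.3% with centring, 55.7% with quantile normalization, 55.2% without the sex covariate, 60.4% with the stricter minimum, 39.7% with the enterocyte sum and 38.4% with the replicate block. Depth limits Tff1, Reg2 and Reg3d most, which had 0 counts in many samples, and the WT samples had the lowest median depth. Strand and multiply mapped reads could not be examined, and litter, housing and cell composition were not varied independently of genotype.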
